A study of Saccharomyces cerevisiae with 16 samples.

Results

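In wild-type budding yeast shifted to 15 °C, ribosome footprints relative to mRNA differed between functions. Messages for sugar breakdown, protein chaperones, the cell wall, translation elongation and tRNA charging had more than the median gene. Among genes past the minimum given below, no function list had a median far below the median gene at the main settings. The lowest medians, of splicing and transcription genes, stood at about -0.2 on the log2 scale. These values form the translational efficiency (TE) landscape of wild-type cells at 15 °C. A gene's TE is its ribosome footprint value minus its mRNA value on the log2 scale, centred so that the median gene is 0. Genes entered when both values were at least 32 normalized units (log2 of 5), which held for 4512 of the 5190 genes in the 15 °C table. Of the rest, 357 were below the minimum in footprints only, 63 in mRNA only and 258 in both, so poorly translated messages of low abundance are under-represented.

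The series measured ribosome footprints and mRNA in cells with and without TIF3, the gene for translation initiation factor eIF4B, after shifts to 15 °C or 37 °C. It holds 16 libraries in 8 groups of 2, and the landscape uses the wild-type footprint and mRNA groups at 15 °C (4 libraries). All wild-type cultures carry the strain name FJZ46 and intact TIF3, grew in synthetic complete medium to an optical density of about 0.7 before the shift, and received cycloheximide at 100 µg per ml for 2 min before harvest. The wild-type cells at 37 °C, used below for values side by side, share all of this except the temperature and the experiment.

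The ribosome-protected pieces of an mRNA, sequenced and counted, show how many ribosomes were reading it, and RNA sequenced alongside shows how much mRNA there was. TE therefore reports footprints for a given amount of sequenced mRNA, relative to other genes. Both values grow with the length of a message, so TE is a density of ribosomes and not their number per molecule. It does not show how fast each ribosome moves, and in the cold both initiation and elongation slow. In yeast, messages for abundant proteins use favoured codons and are well translated, whereas short reading frames upstream of a start codon can keep ribosomes away from the main one.

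The deposited table gives 1 value per gene and group, with the 2 libraries already combined, so no TE has an SD, an n or a test, and differences are described by size only. All 5190 wild-type mRNA values carry 1 decimal, which sets TE to within about 0.05. The lowest footprint values fell on steps of 0.723 units for 84.3% of 70 values (within 0.15 of a step), which makes the minimum about 44 footprints, the median member about 252 and the total about 5400000. The 95% exact Poisson intervals below use these approximate numbers and cover counting error only. No such steps can be read from the mRNA values, and their depth is not known.

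The wild-type cells at 15 °C had TIF3 at 11.12 in footprints and 10.6 in mRNA (log2 units), as their genotype label says. Their mating-type genes read as a cells. In mRNA, all 5 a-cell genes checked stood 0.90 to 3.60 above the median of all genes in the table (log2), and both alpha-cell genes listed stood below it. The pheromone receptor STE2 stood at 10.55 in footprints and 10.9 in mRNA and the protease BAR1 at 10.1 and 9.6, while the alpha-cell receptor STE3 stood at 4.9 and 4.4. The wild-type cells at 37 °C, under the same strain name, read the other way, with STE2 at 4.89 and 7.7, STE3 at 10.74 and 10.1, and the alpha pheromone gene MF(ALPHA)1 at 13.52 and 12.1. There all 5 a-cell genes stood below the median in mRNA and 3 of 4 alpha-cell genes above it. The exception is MF(ALPHA)2, at 8.40 in footprints and 7.4 in mRNA. Any value at 15 °C beside one at 37 °C thus also sets cells that read as a beside cells that read as alpha. Temperature, experiment and mating type cannot be told apart.

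The start regions of the messages with extreme TE are shown first, because they frame the range of the landscape. Each line gives the 15 bases before and the first 15 bases of the coding sequence from the RefSeq R64 genome, with positions -3 to +3 in capitals (the last capitals are the start codon).
GCN4 (TE -5.81): ttaaatacaaatAAAATGtccgaatatcag
HAC1 (TE -4.85): acaacaaccgccACTATGgaaatgactgat
HOL1 (TE -3.10): ttaaatttttaaCAGATGgacaaatatacc
USO1 (TE 2.86): accctcctatcaAGAATGgacatcattcaa
ANB1 (TE 3.17): ttcacacactaaAACATGtctgacgaagaa
PDC5 (TE 3.73): aacaagaagaacAAAATGtctgaaataacc
Adenine at position -3, the base most common there in yeast, stands in 5 of these 6 contexts, in poorly and well translated messages alike. HOL1 has a cytosine there.

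GCN4 and HOL1 carry short reading frames far upstream, shown here because such frames are the known control elements of both messages. The runs below were found from an ATG to the first in-frame stop in the 600 bases before each start codon, with the upstream ATG in capitals (of HOL1, the one nearest the start).
GCN4, ATG at -361: ATGgcttgctaa
GCN4, ATG at -293: ATGtgttaa
GCN4, ATG at -176: ATGtacccgtag
GCN4, ATG at -151: ATGtttccgtaa
HOL1, ATG at -215: ATGctattactaccaagttga
GCN4 lies on the minus strand of chromosome V and HOL1 on the minus strand of chromosome XIV. GCN4 encodes the activator of amino acid synthesis genes, and its 4 upstream frames hold back translation when amino acids are plentiful. HOL1 encodes a polyamine transporter, and translation of its upstream frame responds to polyamines.

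The spread of TE was narrow beside the spread of mRNA. The middle 90% of genes spanned TE from -1.24 to 1.10, a 5.06-fold range, whereas the same share of genes spanned 36.8-fold in mRNA and 75.3-fold in footprints. Quartiles lay at -0.43 and 0.42, and 2860 genes (63.4%) stood within 1.5-fold of the median gene. By the 2-fold mark, 301 genes (6.67%) stood above the median gene and 403 (8.93%) below it. These 2 percentages are the background against which each list below is read. Across the 4512 genes, footprints and mRNA had a Spearman rho of 0.888, and TE and mRNA one of 0.194. TE and mRNA share the mRNA value, so the second is a description only. Of the 443 genes with at least 1000 mRNA units, 91 (20.5%) stood 2-fold above and 24 (5.42%) 2-fold below.

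The median gene is not the only possible zero. Summed footprints over summed mRNA of the same genes, the pooled ratio, lies 0.48 above the median gene, because abundant messages weigh most in it. Centred there, 73 genes stood 2-fold above and 957 below. Of the 40 function lists, 25 had a median above the median gene and 15 below. The 16 lists with medians between 0 and 0.48 lie above the median gene and below the pooled ratio, and are named so below.

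**Figure D1:**
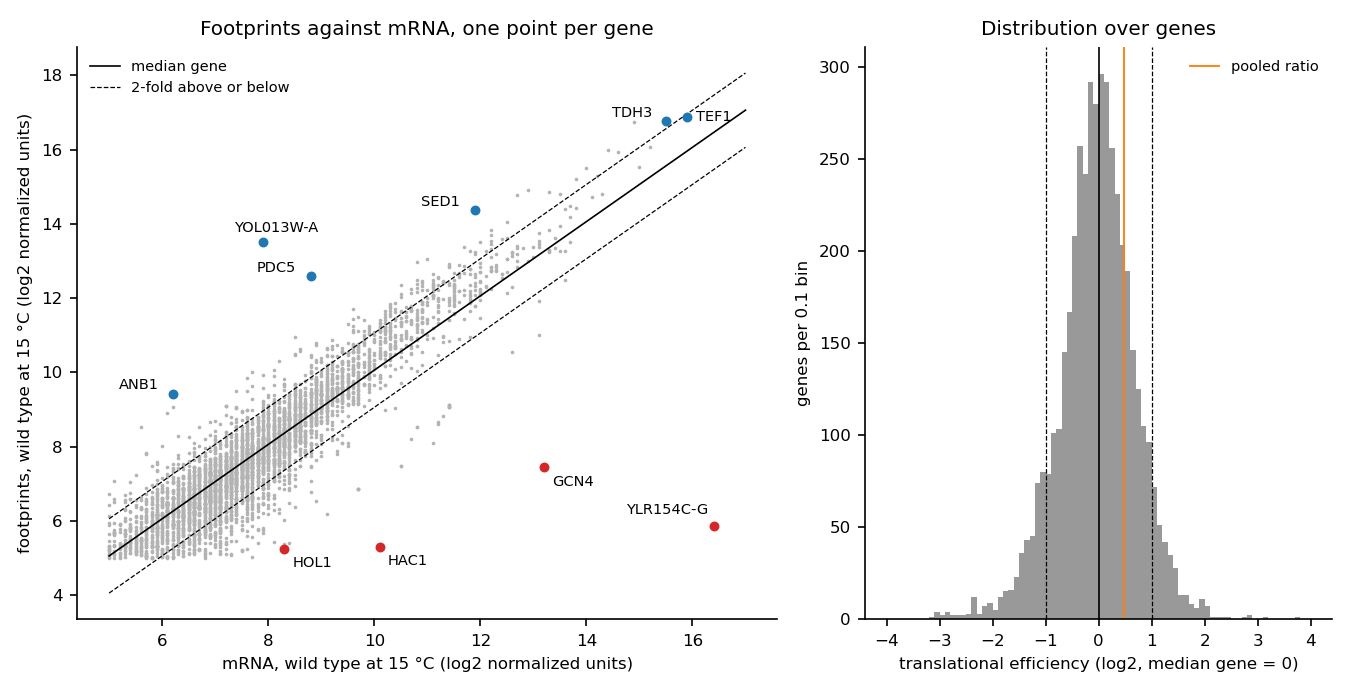
Left, wild-type footprints against mRNA at 15 °C for 4512 genes (log2 normalized units), with the median gene as a solid line and 2-fold above and below as dashed lines. Right, the number of genes per 0.1 of TE between -4 and 4, with the median gene at 0 and the pooled ratio 0.48 above it. GCN4, HAC1 and HOL1 fall far below the cloud, and PDC5 and ANB1 above it.

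Messages under known translational control held the 3 lowest values among genes that share none of their 28-base windows, apart from YLR154C-G, described further on. GCN4 had 7.45 in footprints against 13.2 in mRNA, 56.1-fold below the median gene, from about 242 footprints (95% interval 212 to 274). It was thus among the abundant messages and had about as many footprints as the median member. HAC1 encodes the activator of the unfolded protein response, and its mRNA is held untranslated until the kinase and nuclease Ire1 removes an intron. It had 5.31 against 10.1, 28.8-fold below, from about 55 footprints (41.4 to 71.6). HOL1 had 5.26 against 8.3, 8.57-fold below, from about 53 footprints (39.7 to 69.3).

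The other messages of these lists spread around the median gene. CPA1, the arginine-pathway carbamoyl phosphate synthetase subunit with an attenuator peptide upstream, had a TE of -1.42 (9.04 against 10.4). The stress regulator YAP1 had -0.94, the folate enzyme FOL1 -0.91, the G1 cyclin CLN3 -0.72 and the ornithine decarboxylase antizyme OAZ1, which needs a frameshift, -0.71. Of the 18 members of the list of known upstream open reading frames, 9 stood above the median gene and 9 below (median -0.06). Of these, 3 were past 2-fold below. These 3 are GCN4, HOL1 and CPA1. The leucine-pathway enzyme LEU4 (1.23), the alanyl-tRNA synthetase ALA1 (0.92) and the eIF4G gene TIF4631 (0.79) stood highest on that list. Whether each listed message carries such a frame was not checked. The poly(A)-binding protein gene PAB1, known to repress its own message through its leader, stood at 1.37. ASH1, whose mRNA is silenced on its way to the bud, had 0.55, and MSN2 had -0.41. CBS1, PET111, PPR1 and MBR1 of the upstream-frame list, and EST3 of the control list, were below the minimum.

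Elongation and tRNA charging led the protein-making machinery. Of 13 named elongation and termination factor genes, 11 were listed. All 11 stood above the median gene (median 0.95) and 5 were past 2-fold above, beside 6.67% of all genes. The genes for elongation factor eEF1A, TEF1 and TEF2, each had 16.88 in footprints and 15.9 in mRNA, the highest footprint values of the landscape. Their sequences share 95.9% of 28-base windows with another gene and their rows are identical, so the 2 loci cannot be told apart. EFT2, for elongation factor eEF2, had a TE of 1.35 (15.21 against 13.8) and shares 95.5% of its windows. The eRF3 gene SUP35 had 1.23 and its partner in termination SUP45 had 0.23. All 19 listed cytosolic aminoacyl-tRNA synthetase genes, of 20 named, stood above the median gene (median 0.79, 4 past 2-fold). They ran from GLN4 at 0.13 and THS1 at 0.22 to DPS1 at 1.38 and CDC60 at 1.56.

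Cytosolic ribosomal protein genes had a median of 0.45, above the median gene and just below the pooled ratio. Of 135 genes, 116 stood above the median gene, 22 were past 2-fold above and 2 past 2-fold below. Large-subunit genes (0.47, 75 genes) and small-subunit genes (0.43, 55 genes) had like medians. The 2 genes past 2-fold below were RPS12 at -1.24 (11.92 against 13.1) and RPS31, the ubiquitin fusion, at -1.18 (12.48 against 13.6). RPS29B (1.62) and RPL8A (1.49) stood highest. Among the 5 genes of the ribosomal stalk, RPP2B had -0.91 and RPP1A -0.31, while RPP2A had 1.15 and RPP1B 1.31. These 4 encode acidic proteins of one structure. RPL30, which represses its own expression, had -0.59. Copies of one protein also differed: RPS29A stood at 0.88 beside RPS29B at 1.62, and RPL8B at 0.84 beside RPL8A at 1.49. The near-identical RPL41A and RPL41B share 82.4% of windows and cannot be separated (0.30 and 0.20).

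The 27 initiation factor genes had a median of 0.31, above the median gene and below the pooled ratio, with 23 above and 4 past 2-fold. The helicase gene DED1, which opens structured leaders, was highest at 1.46 (12.02 against 10.5), then PAB1 at 1.37, the eIF4G gene TIF4632 at 1.16 and the eIF3 subunit gene NIP1 at 1.10. The lowest were GCN3 (-0.47), the regulatory subunit of eIF2B, and SUI3 (-0.45), eIF2 beta. Ribosome assembly stood near the median gene. The 56 genes of 60S assembly had a median of 0.11 (-0.02 with a minimum of 100 units) and the 47 of the small-subunit processome -0.09, with 1 of the former and 0 of the latter past 2-fold above; both lie below the pooled ratio. The 71 genes of the mitochondrial ribosomal protein list had -0.10, with 0 past 2-fold in either direction. That list was taken by gene name. Its highest member, KGD4 (0.73), entered under the older name YMR31, so not every member need be a ribosomal protein gene.

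Glycolysis and fermentation genes had the highest median of the 40 lists, 1.21. Of 21 named genes, 17 were listed. All 17 stood above the median gene and 11 were past 2-fold above, beside 6.67% of all genes. The glyceraldehyde-3-phosphate dehydrogenase gene TDH3 had 16.77 in footprints and 15.5 in mRNA (TE 1.21), the pyruvate decarboxylase gene PDC1 16.75 and 14.9 (1.79), and the pyruvate kinase gene CDC19 15.99 and 14.4 (1.53). The triose phosphate isomerase gene TPI1 (0.42), GPM1 (0.45) and the alcohol dehydrogenase gene ADH1 (0.48) were the lowest. PDC5, the minor pyruvate decarboxylase, had 12.59 against 8.8, 13.3-fold above the median gene, from about 8528 footprints (8348 to 8711). It shares 5.23% of its 28-base windows with other genes, and whether footprints of PDC1 were counted at PDC5 was not tested.

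The hexose transporters, which bring glucose into the cell, had a median of 1.02, with all 7 members above and 4 past 2-fold. Of 18 named genes, 9 were listed. Below the minimum in footprints and left out were SNF3 (3.98 in footprints against 5.8 in mRNA) and RGT2 (4.96 against 6.5). HXT6 (1.42) and HXT7 (1.37) were highest and HXT1, the low-affinity carrier, was lowest at 0.37. HXT6 and HXT7 are near-identical, and without genes that share at least 50% of their windows the median was 0.88. Mitochondrial energy metabolism followed. The 15 TCA cycle genes had a median of 0.85 with 5 past 2-fold, led by the alpha-ketoglutarate dehydrogenase gene KGD1 (1.91, 10.07 against 8.1) and the aconitase gene ACO1 (1.74). The 34 nuclear genes of the respiratory chain and ATP synthase had 0.64 with 9 past 2-fold, from COX5B (-0.16), the subunit used at low oxygen, and ATP4 (-0.02) to COX7 (1.45) and QCR10 (1.63). Its oxygen-phase counterpart COX5A had 0.62. Mitochondrial protein import had 0.18, below the pooled ratio, with SSC1, the matrix Hsp70, at 1.62 and the Tim17 gene TIM17 at -0.82.

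Chaperone messages were translated well at 15 °C. Of 27 cytosolic and ER chaperone genes, 26 stood above the median gene and 13 were past 2-fold above (median 0.93). Below the minimum and left out were SSA3 (2.34 in footprints against 6.4 in mRNA) and HSP30 (7.58 against 4.5). The Hsp90 gene HSP82 led with 12.96 against 10.8 (TE 2.10), and its constitutive copy HSC82 had 1.48. The cytosolic Hsp70 genes SSA1 and SSA2 had 2.02 and 1.96 and share 64.7% and 65.0% of their windows. SSB1 and SSB2, the ribosome-bound Hsp70s, had 0.73 and 0.74 and share 60.6% and 60.9% of theirs. The small heat shock protein genes HSP42 and HSP26 had 1.91 and 1.62, and the disaggregase gene HSP104 had 1.44. The ER co-chaperone gene JEM1 was lowest at -0.07. The TRiC chaperonin, which folds actin and tubulin, stood at 0.29 over 8 genes, below the pooled ratio, with 0 past 2-fold.

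Cell wall genes stood high with a wide spread. The highest were the wall protein genes SED1 at 2.41 (14.37 against 11.9), CWP2 at 1.62, CCW14 at 1.58 and HSP150 at 1.45. The chitin synthase gene CHS3 (-1.53, 8.03 against 9.5) and the glucan assembly gene KNH1 (-1.43) were the 2 members past 2-fold below. Over the 33 genes the median was 0.89, with 26 above and 12 past 2-fold. The 2 glucan synthase genes differed, FKS1 at 0.91 and the stress-induced GSC2 at -0.32. Genes known from other work to be induced by cold had a median of 0.50 over 10 genes, with 6 above and 4 below. LOT5 was the lowest of them (-0.99, 6.27 against 7.2) and GRX1 the highest (1.20, 8.66 against 7.4). The delta-9 desaturase gene OLE1 (-0.37, 12.29 against 12.6) and the nucleolin-like NSR1 (-0.16) also stood below the median gene. The wall mannoprotein genes TIR3 (0.95) and TIP1 (0.65) stood above. TIR3 had 6.31 against 5.3, close to the minimum. Below the minimum and left out were 4 listed members, TIR4 (3.39 in footprints against 6.9 in mRNA), TIR2 (3.05 against 5.0), TIR1 (5.96 against 4.3) and PAU2.

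Secretory, lipid and ion pump lists had medians between the median gene and the pooled ratio, and the permeases one just below the median gene, all with wide ranges. COPI, COPII and SNARE genes had a median of 0.32 over 37 genes, with the COPII coat genes SEC31 at 1.83 and SEC16 at 1.62 and the SNARE gene TLG2 at -0.83. ER translocation and glycosylation genes had 0.18 over 32 genes, led by the channel gene SEC61 at 1.31. Ergosterol synthesis had 0.32 over 23 genes, from the cyclase gene ERG7 at -1.37 to the HMG-CoA synthase gene ERG13 at 1.74. Fatty acid synthesis had 0.20 over 14 genes, with the synthase gene FAS1 at 1.29 and the mitochondrial carboxylase gene HFA1 lowest, the 1 member past 2-fold below. The proton pump genes PMA1 and PMA2 had 1.24 and 1.56, the vacuolar ATPase gene VMA2 1.53 and the sodium pump gene ENA1 -0.82, over a list median of 0.26. ENA1 shares 90.0% of its windows and ENA2 (-0.76) 100%, and without genes sharing at least 50% the median was 0.33. Amino acid permeases had -0.05 over 20 genes, with AGP2 at 1.97 and the ammonium carriers MEP2 (-1.24) and MEP3 both past 2-fold below.

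Biosynthetic enzymes spread widely. Amino acid synthesis had a median of 0.39 over 71 genes, below the pooled ratio, with 12 past 2-fold above and 4 past 2-fold below. The methionine synthase gene MET6 (2.00) and the aromatic pathway gene ARO1 (1.36) stood highest, and TRP1 (-1.55) and CPA1 (-1.42) lowest. Nucleotide synthesis had 0.07 over 28 genes, below the pooled ratio (and -0.04 with a minimum of 100 units), from ADE8 (-0.88) to the pyrimidine gene URA2 (1.29). Histone genes had 0.37 over 11 genes, also below the pooled ratio, with both H2B genes, HTB2 (1.05) and HTB1 (0.96), above both H2A genes, HTA1 (0.02) and HTA2 (-0.11), whose proteins pair in the nucleosome.

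**Figure D2:**
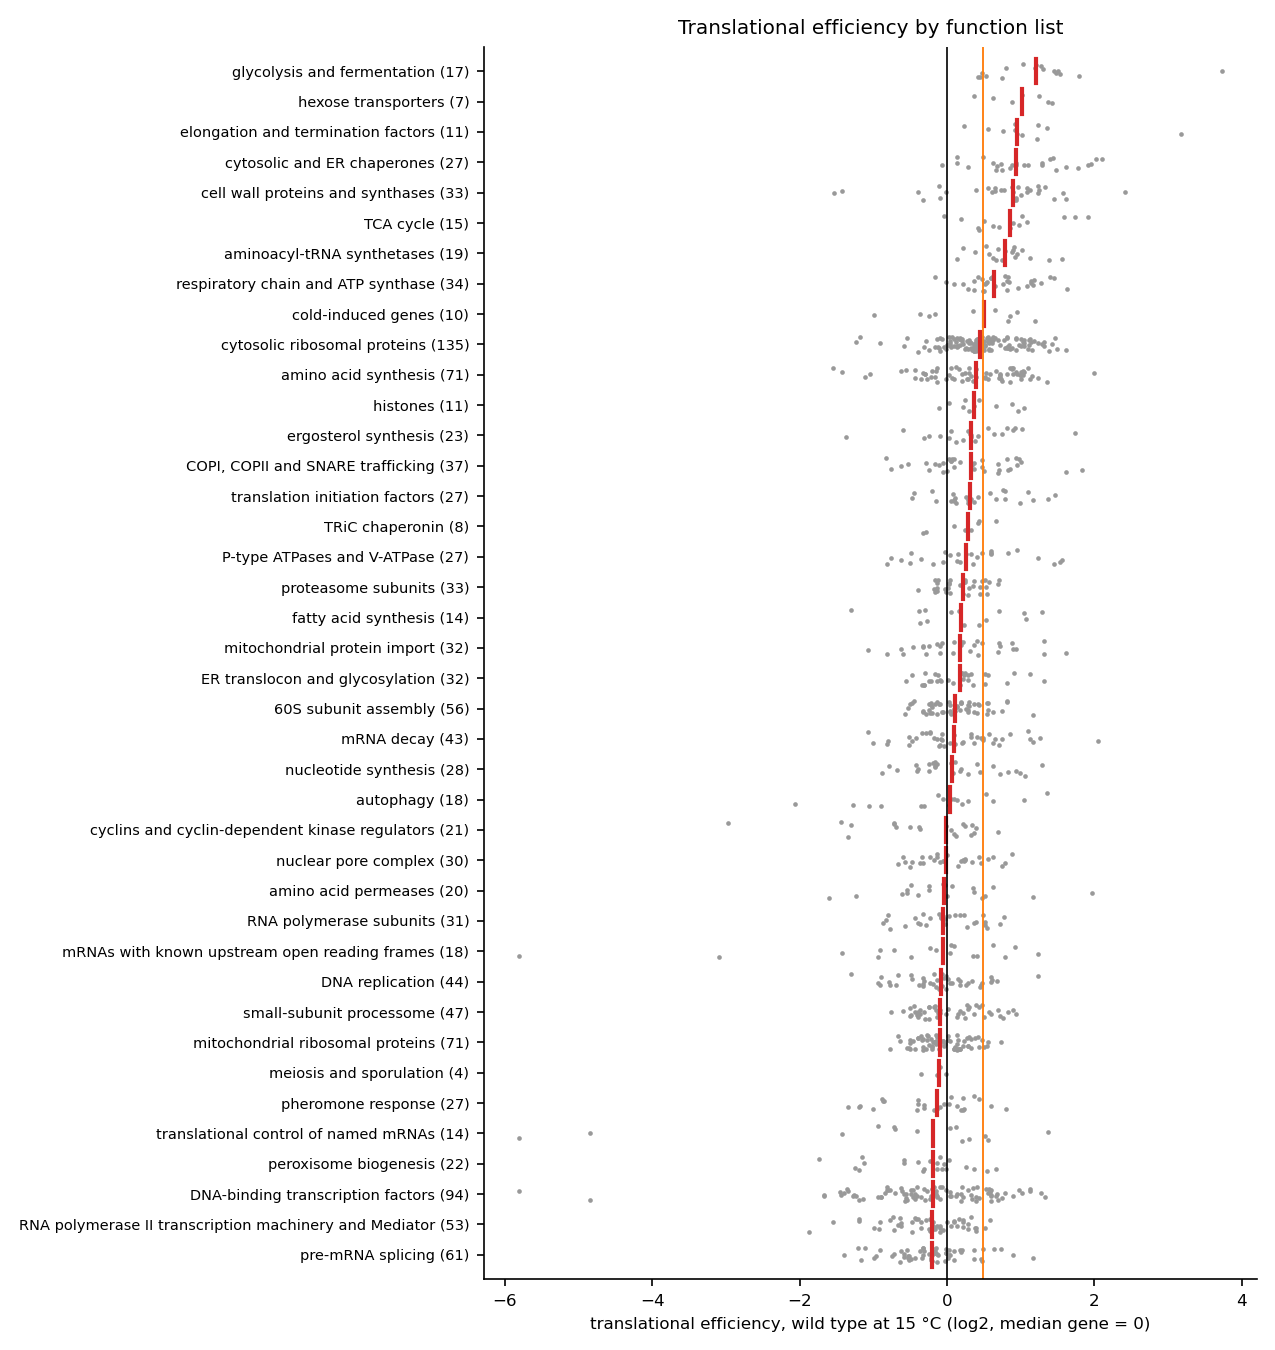
TE at 15 °C of every member of 40 function lists (points, log2, median gene at 0), with the list median in red, the number of members in brackets and the pooled ratio in orange. Glycolysis (median 1.21) stands at the top and pre-mRNA splicing (-0.21) at the bottom, and the 135 cytosolic ribosomal protein genes centre on 0.45.

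The lowest list medians, between -0.21 and -0.19, were close to the median gene. They belonged to splicing, transcription and peroxisome lists, with the translational control list (14 genes) beside them. The place of the control list depended on the setting. Its median was 0.0 with a minimum of 100 units and -0.55 at coding lengths of 300 bases or more. Without genes sharing at least 50% of their windows it was -0.56. Pre-mRNA splicing stood at -0.21, with 43 of 61 genes below the median gene but 4 past 2-fold below, a share near the background of 8.93%. Its lowest members were the helicase genes PRP16 (-1.40) and PRP5 (-1.21), and its highest LSM4 (1.17) and SNU13 (0.90). RNA polymerase II transcription machinery and Mediator had -0.20, with 36 of 53 below and 4 past 2-fold below, again near the background. The Mediator kinase gene SSN3 had -1.88 (6.18 against 8.0). The 31 subunits of the RNA polymerases had -0.05, with the largest Pol II subunit gene RPO21 at 0.77.

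DNA-binding transcription factors had a median of -0.19 over 94 genes, with 57 below and 14 past 2-fold below (beside 8.93% of all genes), and 5 past 2-fold above. After GCN4 and HAC1 the lowest were the GABA and zinc regulators UGA3 and ZAP1, both at -1.67. The stress regulator MSN4 (1.33) and the repressor XBP1 (1.27) were highest. The paralogs MSN2 and MSN4 thus lay on either side of the median gene. Peroxisome biogenesis had -0.19, with 17 of 22 below and 5 past 2-fold below, among them PEX28 (-1.25).

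The place of cell cycle and signalling lists depended on the minimum. Cyclins and their kinase regulators had a median of -0.01, with 4 of 21 past 2-fold below, and -0.38 with a minimum of 100 units. PCL5, the cyclin that directs Gcn4 protein to degradation, had -2.98 (5.38 against 8.3, about 58 footprints), and the mitotic inhibitor SWE1 had -1.44. The pheromone response list had -0.13 over 27 genes (-0.28 with a minimum of 100 and -0.24 at coding lengths of 300 bases or more), with the arrest factor FAR1 at -1.35 and the transcription factor STE12 at -1.19. DNA replication had -0.08 over 44 genes (0.03 with a minimum of 100), with TOP2 at 1.23. Autophagy had 0.04 over 18 genes, from ATG5 (-2.06, 5.10 against 7.1) to ATG8 (1.35). Messenger RNA decay had 0.10 over 43 genes, with the decapping activator DHH1 at 2.05 (10.31 against 8.2) and the nonsense-mediated decay factor NMD2 at -1.01. The last 2 medians lie below the pooled ratio, and with a minimum of 100 they were -0.10 and -0.05. Of 60 named meiosis and sporulation genes, 28 were listed and 4 passed the minimum, with 0 past 2-fold. Most of those left out had lower footprint than mRNA values, such as ADY3 (-0.48 against 5.2), RED1 (-0.42 against 5.1) and IME2 (1.07 against 5.1). Some had higher ones, such as RIM4 (4.63 against 3.3) and IME1 (4.94 against 3.7). The 4 members therefore do not stand for the list.

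Lists of multisubunit machines differed in how even they were, but the lists are not alike in kind. The RNA polymerase list joins subunits of several polymerases, and the respiratory chain list joins several complexes with ATP synthase. Their spans therefore do not measure evenness within a single complex. The 33 proteasome subunit genes had a median of 0.21, below the pooled ratio, with 0 past 2-fold in either direction and a range from -0.40 (RPT1) to 0.71 (PUP1). Per kilobase of coding sequence their footprint levels spanned 2.10-fold and their mRNA levels 2.32-fold. The TRiC genes spanned 1.84-fold in footprints and 1.48-fold in mRNA per kilobase. Per kilobase the respiratory chain list spanned 10.7-fold in footprints and 16.1-fold in mRNA, the RNA polymerase list 11.3-fold and 7.33-fold, and the nuclear pore list 6.94-fold and about 5-fold. From the 10th to the 90th percentile the footprint spans were 2.94-fold, 5.52-fold and 3.16-fold, so the order of the first and last depends on their extremes. Glycolysis, a pathway and not a machine, spanned 1165-fold in footprints per kilobase, from PYK2 to TDH3.

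The budget of footprints was concentrated. Cytosolic ribosomal protein genes took 18.6% of summed footprints and 20.6% of summed mRNA, without the gene that overlaps ribosomal RNA. Glycolysis and fermentation took 16.7% of footprints from 10.8% of mRNA, elongation and termination factors 8.36% from 6.29%, chaperones 4.54% from 2.70% and the cell wall 3.52% from 2.42%. Transcription factors took 0.375% from 0.958%. Values are not divided by length here, and the elongation share counts both identical rows of TEF1 and TEF2.

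**Figure D3:**
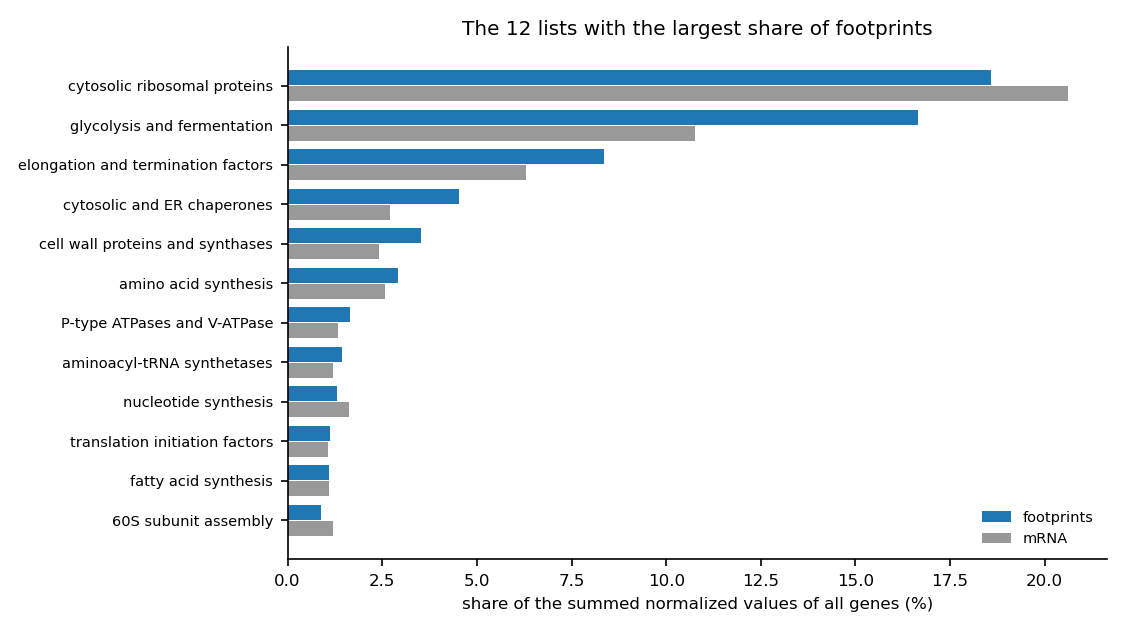
Share of the summed normalized values taken by the 12 lists with the largest footprint share (%), footprints in blue and mRNA in grey, wild type at 15 °C. Glycolysis takes 16.7% of footprints and 10.8% of mRNA, and ribosomal protein genes 18.6% and 20.6%.

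Beyond GCN4 and HAC1, several of the most extreme values belonged to genes whose reads are uncertain. YLR154C-G had 5.86 in footprints against 16.4 in mRNA (TE -10.60) and lies wholly within ribosomal RNA on the same strand, so its mRNA value cannot be told apart from ribosomal RNA. All 14 genes annotated as Y prime elements, repeats of chromosome ends, stood past 2-fold below (median -2.38), from YPR204W (-3.07) and YFL066C (-2.97) upward, and each shares at least 50% of its windows. YHR219W (-3.09) and YHL050C (-3.07), which carry no such annotation, share 100% and 91.5% of theirs. Genes within 20 kb of a chromosome end had a median of -0.64 over 82 genes, with 34 past 2-fold below, a group of which 36 genes share that much sequence. The identical rows of the asparaginase genes ASP3-1 to ASP3-4 had -2.89 (6.87 against 9.7). YOL013W-A had 13.51 against 7.9 (TE 5.55), and has no coding sequence in R64, so what its row counts was not checked.

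Other genes also reached far from the median gene. EBS1, a relative of the telomerase subunit gene EST1, had -3.04 (5.42 against 8.4, about 59 footprints, 44.9 to 76.1), and the potassium transporter gene TRK1 had -2.73 (5.43 against 8.1). On the high side, ANB1, the low-oxygen form of the elongation factor eIF5A, had 9.43 against 6.2 (TE 3.17, about 954 footprints, 894 to 1017) and shares 8.72% of its windows. Its major copy HYP2 is not analysed here. USO1, a long tether of ER vesicles, had 8.52 against 5.6 (2.86). The cyclin-dependent kinase inhibitor gene CIP1 had 9.07 against 6.2 (2.81), the ornithine aminotransferase gene CAR2 8.90 against 6.1 (2.74), and the actin-binding protein gene ABP1 10.94 against 8.5 (2.38). SRO9, an RNA-binding protein gene, had 2.25, and BTN2, a sorter of protein aggregates, 2.19. USO1, CIP1, CAR2 and ANB1 have mRNA values between 5.6 and 6.2, near the minimum of 5, whereas their footprint values are higher. OLI1, the mitochondrially encoded ATP synthase subunit, had 2.05 (7.81 against 5.7) and is read by mitochondrial ribosomes.

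Properties of the coding sequence and of the start region varied together with TE across genes. These are descriptions over 4510 genes with an R64 coding sequence, and genes are not replicates. Codon adaptation, the match of a gene's codons to those of ribosomal protein genes, had a Spearman rho of 0.474 with TE (0.462 without ribosomal protein genes). Genes were ordered and cut into 10 bins of 451. From the lowest to the highest bin of codon adaptation, median TE went from -0.38 to 0.62, and the share of genes past 2-fold above from 1.11% to 26.4%. The predicted folding energy of 30 bases each side of the start at 15 °C had a rho of 0.292, where the most stable bin had a median of -0.31 and the least stable 0.32. Coding length had a rho of -0.116. The shortest bin stood at 0.25 and the longest at -0.07, but the longest bin also held the largest shares among the length bins past 2-fold below (14.6%, beside 1.77% in the shortest) and above (9.53%, beside 8.65%).

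Bases just before the start codon varied with TE to a smaller extent. Genes with adenine at -3 had a median of 0.06 (2839 genes), with guanine -0.06 (863), with thymine -0.17 (447) and with cytosine -0.19 (361). Adenine stands there in 62.9% of members and in 60.9% of all 6027 R64 coding sequences. The letters ATG occur on the coding strand within the 50 bases before the start in 681 members (15.1%; 19.3% of all R64 coding sequences). Those genes had a median TE of -0.33 with 19.4% past 2-fold below, against 0.04 and 7.08% for the other 3829. Among genes below the median codon adaptation the medians were -0.47 with and -0.21 without ATG, and among those above it 0.06 and 0.27. The transcript's 5' end was not used, so an ATG in this window is not known to be in the mRNA. GCN4, HAC1 and HOL1 have none in the window.

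**Figure D4:**
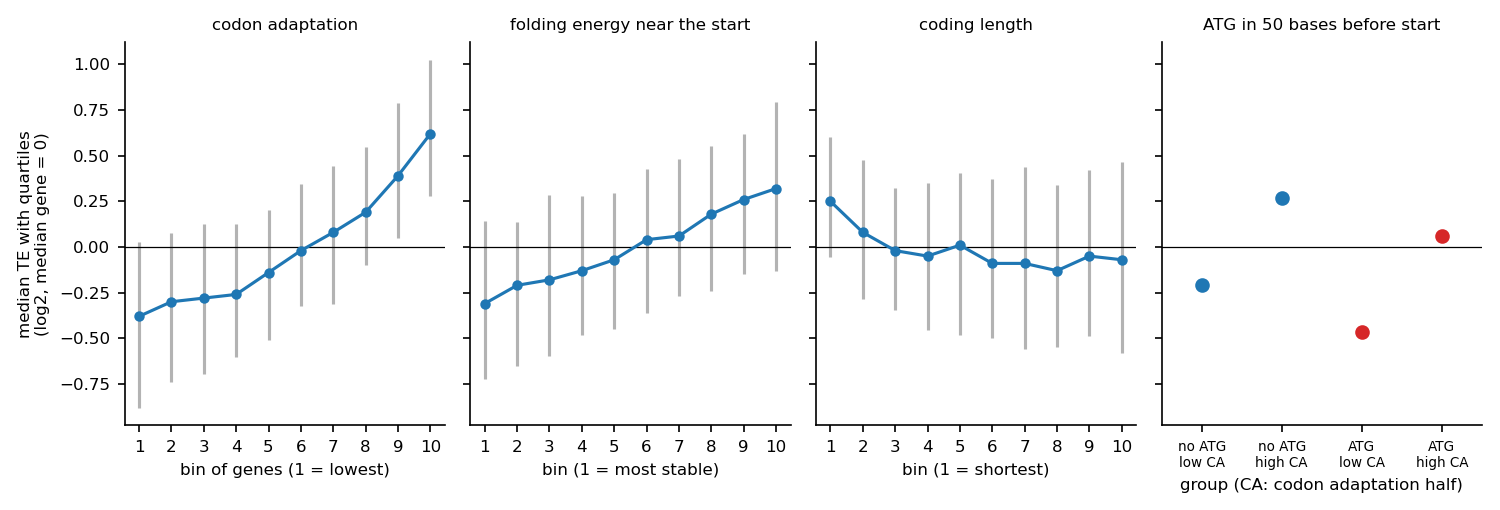
Median TE (log2, median gene at 0; grey bars from the lower to the upper quartile over genes) by 10 bins of codon adaptation, of predicted folding energy around the start at 15 °C and of coding length, 451 genes each, and by presence of ATG in the 50 bases before the start among genes of low and high codon adaptation (CA; medians only). Median TE goes from -0.38 to 0.62 over the codon adaptation bins, and both groups with ATG lie below their partners without it.

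Set beside wild-type cells at 37 °C, the order of genes was largely shared and the range was narrower. Over 4492 genes past the minimum at both temperatures, TE at 15 °C and at 37 °C had a Spearman rho of 0.741, and 4098 genes (91.2%) differed by less than 2-fold. The quartiles of TE were 0.85 apart at 15 °C and 1.20 apart at 37 °C. Among the 576 of these genes with at least 1000 footprint units at 15 °C, they were 0.70 and 0.77 apart. No such mark was set on the footprints at 37 °C. List medians over the same genes lay closer to 0 at 15 °C in 37 of 40 lists: glycolysis had 1.21 at 15 °C and 2.39 at 37 °C, elongation factors 0.95 and 1.83, chaperones 0.93 and 1.66, and cytosolic ribosomal proteins 0.45 and 0.99. With both temperatures centred on the shared genes, every median at 37 °C is 0.095 lower and 36 of 40 lists lie closer to 0 at 15 °C. The rho with codon adaptation was 0.474 at 15 °C and 0.650 at 37 °C. With folding energy predicted at 15 °C for both it was 0.292 and 0.290, and with energy predicted at 37 °C 0.273 and 0.279. The tables were normalized separately, there is 1 value per group, and none of these differences was tested.

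Single genes that departed most between the temperatures include several described above. HAC1 had a TE of -4.85 at 15 °C and -1.63 at 37 °C, with mRNA of 10.1 and 11.6 and footprints of 5.31 and 9.99. HOL1 had -3.10 and -0.79. GCN4 was low in both, -5.81 and -5.33. HBT1, a protein of polarized growth, had 0.43 and 2.86, and YNL042W-B 0.01 and 8.32. At 37 °C YNL042W-B had 13.54 in footprints against 5.2 in mRNA, near the minimum of 5. It overlaps same-strand annotation over 32.6% of its length and shares 11.3% of its 28-base windows. On the other side, CIP1 had 2.81 and -0.18, the transcription factor gene SMP1 0.68 and -2.17, YOR342C -0.27 and -2.99, and the wall sensor gene MTL1 1.44 and -0.80. The a-factor exporter gene STE6 had 0.22 and -3.03, and it is a gene of a cells.

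**Figure D5:**
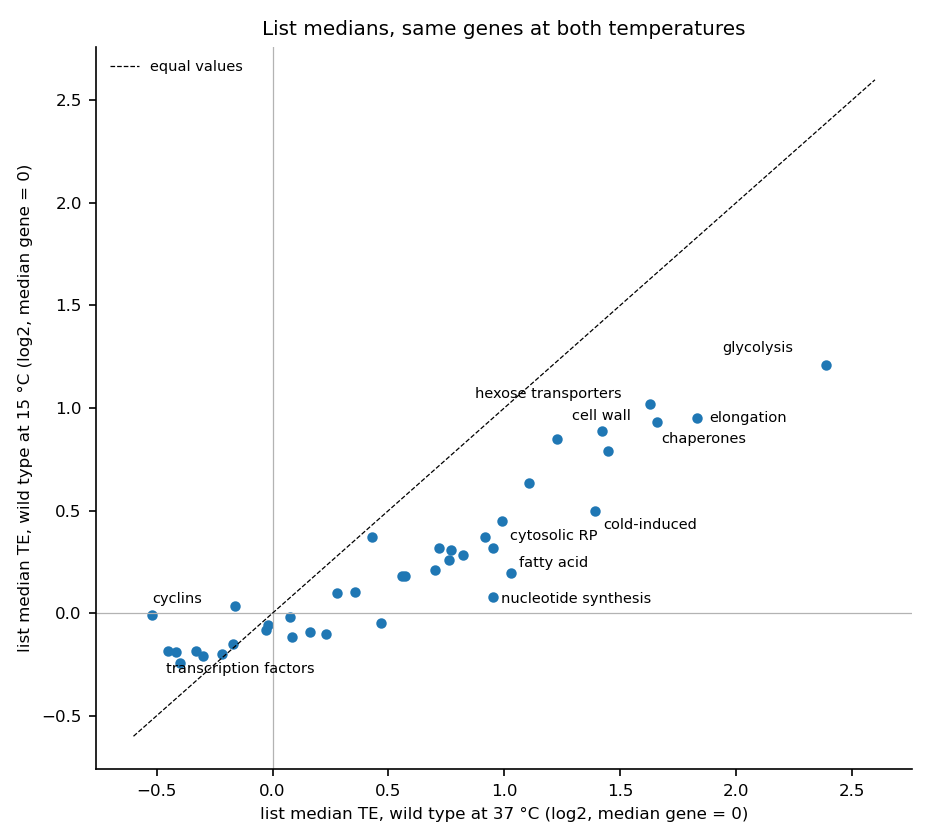
Median TE of 40 function lists at 15 °C against that of the same genes at 37 °C, each temperature centred on its own median gene (log2), with the line of equal values dashed. Glycolysis lies at 1.21 and 2.39, and 37 of the 40 lists lie closer to 0 at 15 °C.

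At the edge of the selection, the members with the smallest passing values were PEX22 (5.32 in footprints, 5.0 in mRNA, TE 0.26) and IAI11 (5.08 and 5.0, TE 0.02). The nearest genes left out were YBR259W (4.99 and 6.5) and GEP5 (4.99 and 5.6).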

How the data were processed

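The authors deposited 1 table per temperature with log2 normalized values of footprints and mRNA per gene and group; the labels do not say how the 2 libraries of a group were combined. The build sacCer2 and the tools TopHat2 2.0.7, Bowtie2 2.0.6, DESeq and CASAVA 1.8 are named in the submitters' processing notes, with no roles. Only the wild-type columns were used. Genes were kept at 32 normalized units or more in both, and TE was footprint minus mRNA value minus the median over these genes. Calls are differences past 2-fold, with no test. The computation was tested on simulated data. Symbols, coding sequences and start regions came from RefSeq R64 by locus name; no coordinates were carried from the authors' build. Folding energy was computed with RNAfold 2.7.2. The genes named are the 10 highest and 10 lowest in TE, those with the most footprints or mRNA, the extremes of each list, the genes of the translational control lists and those departing most from 37 °C; RPL30, RPL8B, RPS29A, TRK1, ASP3-1 to ASP3-4, OLI1 and others between the extremes of a list were named after their values were seen. Replicate libraries are not said to be separate cultures. Members and lists were chosen with earlier results of these data known. Alternatives are given in the closing section.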

Additional observations from a re-analysis of the deposited data

How the results depend on the processing

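No paired analysis was possible because the table holds 1 combined value per group; leaving out a replicate was not possible for the same reason. With a minimum of 100 units, 178 genes stood 2-fold above and 141 below. Centred on the pooled ratio these counts were 73 and 957, and 68 and 1036 without the gene overlapping ribosomal RNA (a setting chosen after seeing the data). At 1.5-fold they were 804 and 848, and at 3-fold 59 and 103. That minimum moved 37 of 40 list medians (median shift 0.12) and turned the sign of 5 (60S assembly, nucleotide synthesis, mRNA decay, autophagy and DNA replication). List medians with it were 0.83 for elongation factors, 0.67 for tRNA synthetases, 1.13 for glycolysis, 0.73 for the TCA cycle, 0.47 for the respiratory chain, 0.87 for chaperones, 0.79 for the cell wall and 0.90 for hexose transporters; with a minimum of 10, chaperones had 1.03 and hexose transporters 0.92. Centred on the pooled ratio, the same lists in that order had 0.47, 0.31, 0.73, 0.37, 0.15, 0.45, 0.41 and 0.54, and cold-induced genes 0.019. Without the gene overlapping ribosomal RNA they had 0.42, 0.26, 0.68, 0.32, 0.11, 0.40, 0.36 and 0.49, and cold-induced genes -0.028, the only list with a median of 0.50 or more to change sign. Of all 40 lists, 16 and 17 changed sign under these 2 settings. Without genes that share sequence, also chosen after seeing the data, hexose transporters had 0.88 and the translational control list -0.56. At coding lengths of 300 bases or more the control list had -0.55. The difference between genes with and without an ATG before the start was -0.23 with a minimum of 100. Centring moves every list by 1 constant; the other causes were not tested. With both temperatures centred on shared genes, the median of TE at 15 °C minus 37 °C was -0.075 in place of -0.17, and 2 of the lists changed sign at 37 °C. Keeping 1 of each set of repeated rows moved no list median.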
